A study of Mus musculus with 2 samples.

Results

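The satellite repeats of mouse centromeric regions were examined in a chromatin immunoprecipitation sequencing (ChIP-seq) experiment on H3.3S31ph, the histone variant H3.3 with a phosphate on serine 31. They are 3 of the 952 repeat types in the count tables, taken by their row names: GSAT_MM, the major satellite, SYNREP_MM, the minor satellite, and CENSAT_MC, a further centromeric satellite entry. The cells were wild-type mouse embryonic stem (ES) cells of strain 129S1/SvImJ, below passage 20, and nothing in the labels says whether ChIP and input came from 1 culture. They were arrested with 9 µM RO-3306, which blocks the mitotic kinase CDK1, for 12 hours and collected 11 hours after its removal as a mitotic population. The ChIP group is 1 sample precipitated with 10 µg of H3.3S31ph antibody, and the input group is 1 sample of the same kind of chromatin sequenced without antibody. Both groups share the genotype, the arrest and the fixation for 10 min in 0.4% formaldehyde. The tables hold reads per repeat type only, so neither the mitotic state nor the ES identity could be checked against marker genes. No immunoprecipitation of total H3.3 or of another histone was analysed here, so more phosphorylation and more H3.3 on a repeat cannot be told apart.

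Mouse centromeres in general carry tandem arrays of both satellites. The minor satellite holds binding sites for CENP-B and is the DNA on which nucleosomes containing CENP-A, the centromeric H3 variant, and the kinetochore are assembled. The much longer arrays of the major satellite flank it and form the pericentromeric heterochromatin, which carries H3K9 trimethylation and HP1 and holds sister chromatids together in mitosis. H3.3 is placed on chromatin outside of DNA replication, at pericentromeric and telomeric repeats by ATRX and DAXX, and its serine 31 is phosphorylated in mitosis. Microscopy has placed this phosphorylation beside the centromeres of differentiated cells and at the telomeres of ES cells.

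Over both lanes the tables held 12235477 ChIP and 8856751 input reads, or 1.38 ChIP reads per input read. Each library was run on 2 lanes, whose reads were added together. With 1 sample in each group there was no test between conditions, and every interval below is a 95% interval of counting error alone. No molecular identifiers are described for these reads, and any removal of duplicates is not given, so amplified copies may count as separate reads.

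The minor satellite was higher relative to the major satellite in the H3.3S31ph ChIP than in the input, by a small amount that both lanes gave alike. In the input, GSAT_MM had 1122812 reads in lane 1 and 1107183 in lane 2, and SYNREP_MM had 73918 and 73298. In the ChIP, GSAT_MM had 1557283 and 1514098 reads, and SYNREP_MM had 118372 and 116026. There were thus 15.1 major satellite reads for every minor satellite read in the input and 13.1 in the ChIP.

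The same contrast was expressed as the minor satellite's share of all reads from the abundant satellites, a quantity that does not depend on how the libraries are scaled. SYNREP_MM made up 6.18% of these reads in the input of lane 1 (6.13 to 6.22, Clopper-Pearson) and 6.21% in the input of lane 2 (6.17 to 6.25). In the ChIP it made up 7.06% in lane 1 (7.03 to 7.10) and 7.12% in lane 2 (7.08 to 7.16). Both ChIP lanes lay above both input lanes, and the gap between the libraries was wider than that between lanes. A second lane only draws further reads from a library already prepared, so the gap between lanes leaves out any variation between libraries. It therefore cannot show whether the difference between ChIP and input would recur. Summed over lanes the share was 6.19% in the input (6.16 to 6.22) and 7.09% in the ChIP (7.06 to 7.12), a difference of 0.898 percentage points.

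**Figure D1:**
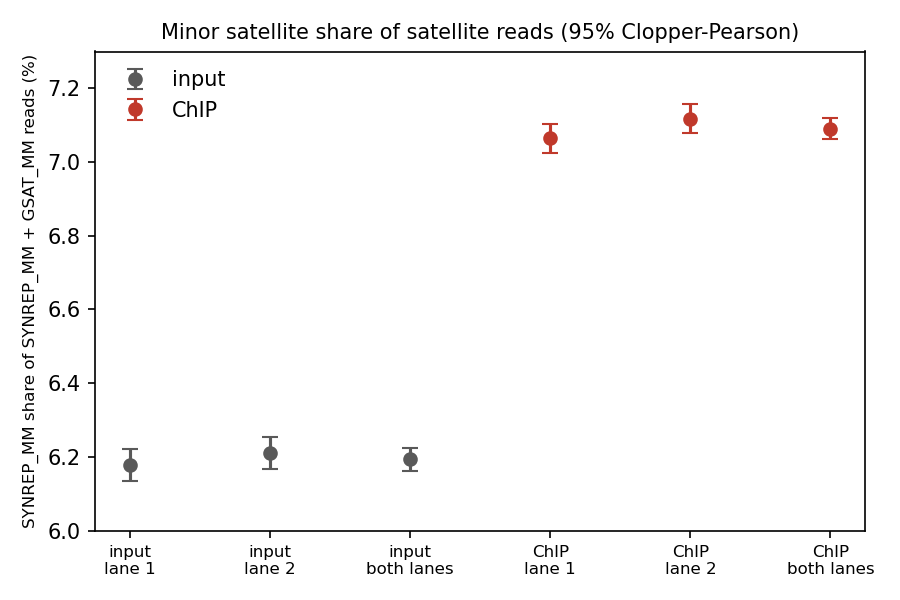
The vertical axis gives SYNREP_MM reads as a percentage of SYNREP_MM plus GSAT_MM reads, from 6 upward, for the input (grey) and the ChIP (red), by lane and for both lanes. Points are shares and bars are 95% Clopper-Pearson intervals of counting error, and the ChIP points, at 7.06% and 7.12% in the lanes, stand above the input points at 6.18% and 6.21%.

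Written as a ratio of ratios, the ChIP held 1.16 times as many minor satellite reads per major satellite read as the input did (1.15 to 1.16, a log2 difference of 0.21 with a standard error of 0.0050). It was 1.15 (1.14 to 1.17) in lane 1 and 1.16 (1.15 to 1.17) in lane 2. The log2 values of the lanes differed by -0.0036, with an interval from -0.023 to 0.016 that includes 0. In reads, SYNREP_MM had 31637 more ChIP reads than the 202761 it would have had at the pace of GSAT_MM. The interval is narrow because the counts are large, and it does not include the variation that a second culture or a second immunoprecipitation would show.

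Against the whole table, the major satellite had nearly the same share in both libraries and the minor satellite a slightly larger one in the ChIP. GSAT_MM was the most abundant row in both libraries, with 25.18% of input repeat reads (25.15 to 25.21) and 25.10% of ChIP repeat reads (25.08 to 25.13), a difference of -0.076 percentage points. SYNREP_MM was the ninth row by input reads and the seventh by ChIP reads, with 1.66% of input repeat reads (1.65 to 1.67) and 1.92% of ChIP repeat reads (1.91 to 1.92). The ratio of these shares was 0.997 (0.995 to 0.999) for GSAT_MM and 1.15 (1.15 to 1.16) for SYNREP_MM. In lane 1 and lane 2 it was 0.999 and 0.995 for GSAT_MM, and 1.153 and 1.152 for SYNREP_MM. The log2 ratios of the lanes differed by 0.0046 (-0.00041 to 0.0095) for GSAT_MM and by 0.00095 (-0.018 to 0.020) for SYNREP_MM, against a median absolute difference of 0.035 among the 406 rows that had 1000 or more input reads. Both satellites have more reads than most of these rows and so less counting error, and better agreement of their lanes cannot be read from this.

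CENSAT_MC was at the limit of detection. It had 2 input reads and no ChIP read in lane 1, and no input read and 1 ChIP read in lane 2. With so few reads the ratio of 0.362 had an interval from 0.0061 to 6.95, and against GSAT_MM in place of the table totals it was 0.363 (0.0062 to 6.97). Neither a gain nor a loss was detectable for it from these counts, and only 14 of the 952 rows had this few reads or fewer in all, CENSAT_MC included.

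Whether the major satellite lay above or below its input level depended on the scale set between the libraries. GSAT_MM gave 1.38 ChIP reads per input read, at 1.387 in lane 1 and 1.368 in lane 2, and SYNREP_MM gave 1.59, at 1.601 and 1.583. A satellite has a ratio above 1 on every scale that takes fewer ChIP reads per input read than this as its unit. All table reads gave a unit of 1.381, just above GSAT_MM, while the median of the 704 repeats with at least 100 input reads gave 1.11. The scales implied by the authors' deposited table were 1.24 in lane 1 and 1.22 in lane 2. Leaving out the telomeric row, which alone took 8.38% of ChIP repeat reads against 0.584% of input, lowered the unit to 1.27. By contrast, leaving out the 5 rows with most input reads, GSAT_MM among them, raised it to 1.45.

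**Figure D2:**
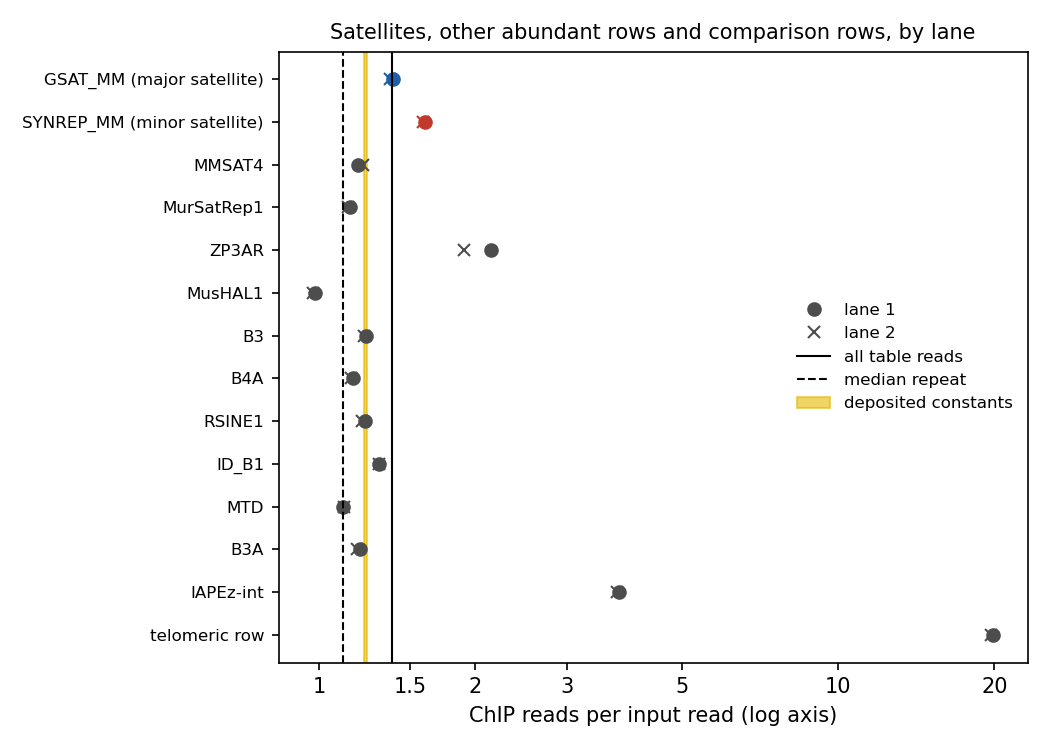
Each row gives ChIP reads per input read on a log axis in lane 1 (circle) and lane 2 (cross) for the abundant satellites, other satellites, the other rows among the 10 with most input reads, and the telomeric row. The solid line is the value over all table reads (1.381), the dashed line that of the median repeat (1.11) and the yellow band the deposited constants (1.22 to 1.24). GSAT_MM lies on the solid line and SYNREP_MM to its right, while the telomeric row lies near 20.

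On the 7 scales tried, the ratio of SYNREP_MM ran from 1.10 to 1.46 and stayed above 1 on each. That of GSAT_MM ran from 0.950 to 1.27, below 1 on 3 scales and above 1 on 4. With the telomeric row left out they were 1.08 for GSAT_MM and 1.25 for SYNREP_MM. When only the 3 centromeric satellites were left out of the totals, the interval of GSAT_MM included 1 (0.999, 0.998 to 1.00), which sets the major satellite level with the pool of all other repeat reads. The ratio of SYNREP_MM divided by that of GSAT_MM is the same on every scale that multiplies both by 1 factor.

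**Figure D3:**
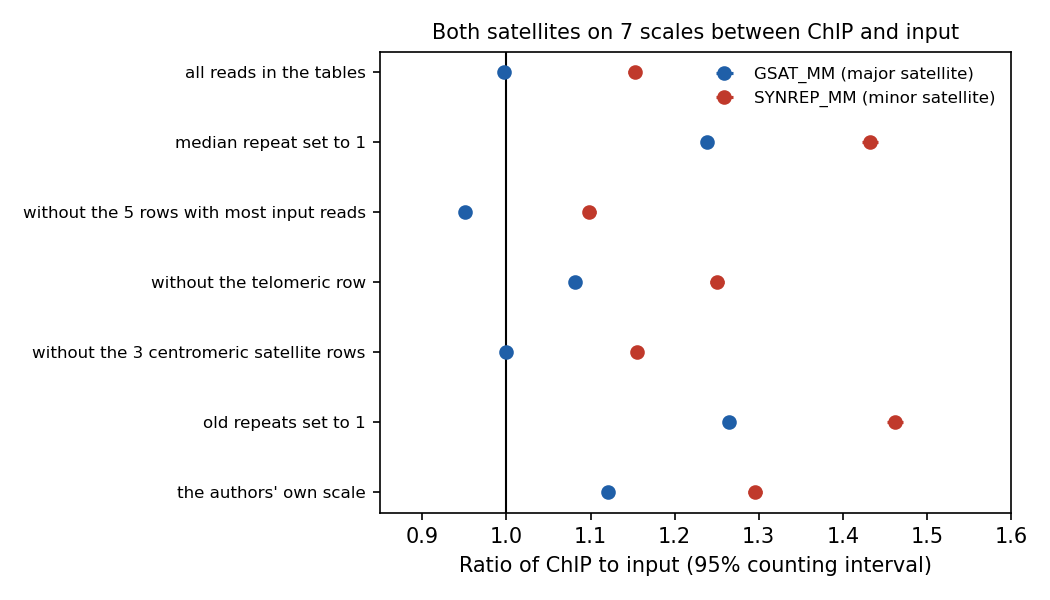
Ratios of ChIP to input are shown for GSAT_MM (blue) and SYNREP_MM (red) on 7 scales, named on the vertical axis, with 95% intervals of counting error that are mostly narrower than the points. SYNREP_MM lies right of the line at 1 on every scale, from 1.10 to 1.46, while GSAT_MM lies on either side of it, from 0.950 to 1.27.

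In the authors' deposited table, where each log2 ratio has a lower and an upper bound, SYNREP_MM stood at 0.374 (0.363 to 0.385) in lane 1 and 0.373 (0.362 to 0.384) in lane 2. GSAT_MM stood at 0.166 (0.164 to 0.169) and 0.162 (0.159 to 0.164) in the authors' deposited table, so both were above 0 on that scale. For CENSAT_MC the deposited bounds ran from -10.474 to 0.097 in lane 1 and from -2.045 to 9.048 in lane 2, and its deposited conservative value was 0 in both.

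The order of repeats by ratio does not depend on the scale, and in that order both satellites lay in the upper part of the table. GSAT_MM ranked 85th and SYNREP_MM 42nd of 704, with 11.9% and 5.83% of the other repeats above them. Neither of these 2 satellites had a ratio of at least 1.2 with table totals, a level reached by 4.83% of all 704 repeats, and neither reached 1.5, as 1.99% did. With the median repeat set to 1, both reached 1.2, at 1.239 (1.237 to 1.241) for GSAT_MM and 1.43 (1.42 to 1.44) for SYNREP_MM, as 14.3% of all repeats did. Neither reached 1.5 on that scale, against 4.69% of all. These intervals leave out the counting error of the median itself.

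**Figure D4:**
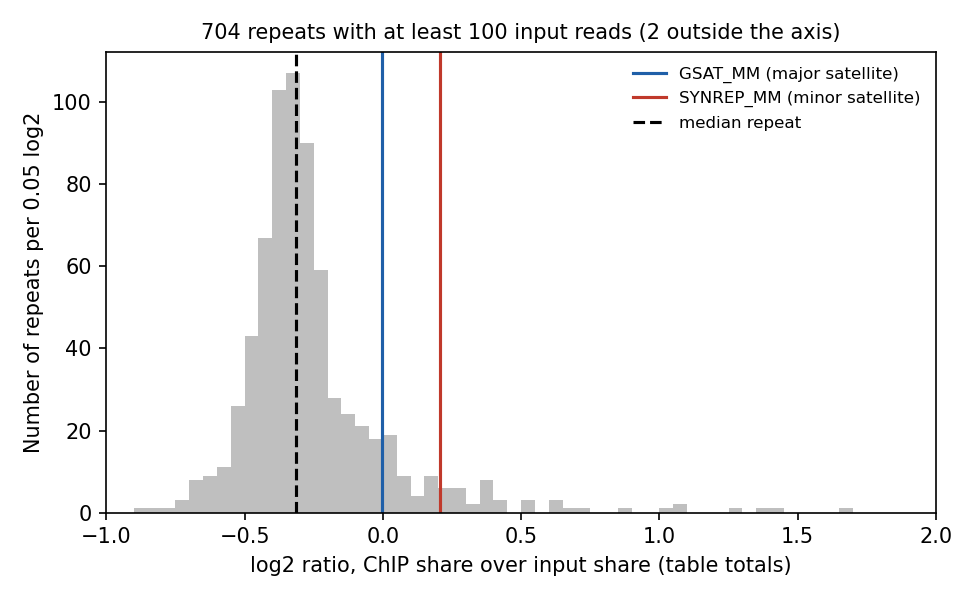
The histogram counts the 704 repeats with at least 100 input reads by log2 ratio of ChIP to input with table totals, in bins of 0.05, and 2 repeats lie outside the axis. The blue line marks GSAT_MM (log2 -0.0044), the red line SYNREP_MM (0.20) and the dashed line the median repeat (-0.31), so both satellites lie right of the bulk.

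Each other repeat was then set directly against each satellite. Relative to GSAT_MM, 55 of 703 repeats (7.82%) had an interval entirely higher, 557 (79.2%) one entirely lower, and 91 could not be separated from it. Relative to SYNREP_MM, 32 (4.55%) were higher, 637 (90.6%) were lower and 34 could not be separated. Most repeats thus had fewer ChIP reads per input read than either satellite.

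The 404 further repeats with at least 1000 input reads were grouped by their names, a grouping made after values had been seen. Of these, 29 lay above SYNREP_MM, 24 between the satellites and 351 below GSAT_MM, placed by ratio alone. By interval, 22 rows could not be separated from GSAT_MM and 12 from SYNREP_MM, each among 405 others. All 13 intracisternal A particle (IAP) rows, which are endogenous retroviruses, lay above the major satellite, and 8 of them above the minor satellite. The intervals of IAPEy-int (0.986 to 1.04) and IAPEY3_LTR (0.991 to 1.09) nevertheless covered the ratio of GSAT_MM, 0.997. Among 192 rows with other long terminal repeat names, 12 lay above SYNREP_MM and 12 between the satellites, and among 35 further internal retroviral rows these numbers were 5 and 2. Of 31 short interspersed element rows, B2_Mm1a alone lay above GSAT_MM, at 1.02, and 0 lay above SYNREP_MM. The ribosomal RNA rows SSU-rRNA_Hsa and LSU-rRNA_Hsa stood between the satellites by ratio, at 1.01 (0.971 to 1.05) and 1.13 (1.10 to 1.16). These intervals cover the ratios of GSAT_MM and SYNREP_MM respectively. Of 31 simple repeat rows, the telomeric row and (CACAG)n lay above SYNREP_MM, (GGA)n and (CAG)n lay between the satellites, and 27 lay below GSAT_MM. Among the 99 rows of other kinds, ribosomal RNA included, GC_rich alone lay above SYNREP_MM, at 1.31 (1.24 to 1.40). AT_rich, named after its value was seen, stood at 0.699 (0.691 to 0.707). How the ratios relate to base composition was not tested.

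Rows nearest to each satellite in log2 ratio were picked among the 406 with at least 1000 input reads. They could not be separated from it, which follows largely from their being picked for nearness. For GSAT_MM they were PB1D9, an Alu-like short interspersed element, at 0.997 (0.982 to 1.01), MURVY-LTR at 0.996 (0.955 to 1.04) and RMER10B at 0.994 (0.966 to 1.02). For SYNREP_MM they were the retroviral rows RLTR1B-int at 1.14 (1.10 to 1.18), LTRIS4 at 1.14 (1.05 to 1.23) and RLTR10E at 1.13 (1.08 to 1.19). Likeness here is the difference of 1 ratio per row over 1 pair of libraries, and it says nothing of other properties.

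Among the most abundant rows both satellites stood high, although no other row came near the abundance of GSAT_MM. The next row, MusHAL1, had 589504 input reads against its 2229995. Of the 10 rows with most input reads, 7 had a ratio below that of GSAT_MM, from MusHAL1 at 0.708 (0.705 to 0.710) to ID_B1 at 0.944 (0.937 to 0.950). These include the short interspersed elements B3 (0.887), B4A (0.839), RSINE1 (0.882) and B3A (0.862), and the long terminal repeat MTD (0.807). IAPEz-int, the internal sequence of the young IAP elements, was the only one above SYNREP_MM. It had nearly the input of the minor satellite, 143950 reads against 147216, but 542783 ChIP reads against 234398. Its ChIP reads per input read were 2.37 times those of SYNREP_MM (2.35 to 2.39) and 2.74 times those of GSAT_MM (2.72 to 2.75).

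The telomeric row, the TTAGGG array that caps chromosome ends, was far above both satellites. It had 26127 input reads in lane 1 and 25584 in lane 2, and 520534 and 504994 ChIP reads. Per input read this was 14.4 times the ChIP of GSAT_MM (14.3 to 14.5) and 12.5 times that of SYNREP_MM (12.3 to 12.6). In these libraries the telomeric row, SYNREP_MM and GSAT_MM stood at levels whose counting intervals do not overlap. Mouse chromosomes are telocentric, with the centromeric satellites next to the telomere of one end. Counts per repeat type hold no positions, so no gradient along a chromosome can be read from these levels. In reads, the telomeric row held 1025528 in the ChIP, against 3305780 for the 3 centromeric satellites together. The satellites made up 27.02% of ChIP repeat reads (26.99 to 27.04) and 26.84% of input repeat reads (26.81 to 26.87), a pooled ratio of 1.007 (1.005 to 1.008).

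The satellites that are not centromeric fell on both sides of the centromeric ones. MMSAT4 had 4319 and 4269 ChIP reads against 3631 and 3519 input reads in lanes 1 and 2. Per input read it had 0.872 times the ChIP reads of GSAT_MM (0.845 to 0.900) and 0.754 times those of SYNREP_MM (0.731 to 0.779). MurSatRep1 had 5855 and 5579 ChIP reads against 5099 and 4915 input reads, which was 0.829 times the level of GSAT_MM (0.807 to 0.852) and 0.717 times that of SYNREP_MM (0.698 to 0.737). Both thus lay below either centromeric satellite. ZP3AR, with 4421 and 4184 ChIP reads against 2063 and 2195 input reads, lay above both, at 1.47 times GSAT_MM (1.41 to 1.52) and 1.27 times SYNREP_MM (1.22 to 1.32). Its lanes differed by more than counting error, at 1.338 times SYNREP_MM in lane 1 and 1.204 in lane 2, but it lay above the minor satellite in each. MurSAT1, a further row with a satellite name that was not on the list and was added after its value was seen, had 1616 ChIP reads against 1829 input reads. Its ratio of 0.640 (0.598 to 0.684) with table totals lay below those of both centromeric satellites and of the 3 listed satellites. Of these 4 other rows, ZP3AR alone was above the major satellite, and no property shared by the satellites as a class was tested.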

How the data were processed

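Per the submitters' processing notes, reads were aligned with Bowtie 1.0.0 and the build named is mm9. Not given in the sources used here are the rule that assigned a read to a repeat type, the treatment of reads matching both satellites and any removal of duplicates. In each of 2 lanes, 1 deposited table holds raw read counts per repeat type and the authors' log2 ratio with its bounds. Adding 0.5 to both counts and subtracting 1 constant per lane recovers that log2 ratio to within 0.00053.

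Counts were summed over lanes (6204712 and 6030765 ChIP reads, 4467116 and 4389635 input reads). A ratio is a row's share of ChIP table reads over its share of input table reads, with a 95% exact conditional (Clopper-Pearson) interval. No library totals were used, since the tables give none. A ratio of ratios between rows has a 95% interval from the normal approximation of its log, and no scale enters it. Ranks and background shares used the 704 rows with at least 100 input reads. Both interval types were tested on simulated independent counts with a known scale, which is the setting they assume. That test does not cover amplified copies or variation between libraries. Python 3.11.15 with scipy 1.17.1 was used.

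The rows named were the members, the other satellites, the telomeric row, IAPEz-int, the 10 rows with most input reads and the 3 nearest rows to each abundant satellite. Rows named by where they ranked against the satellites were added after values were seen. The members and lists were chosen with earlier results of these data known. Alternatives were single lanes, 6 other scales, 1 added read and other read minimums. No satellite sequence was used here, so none is printed.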

Additional observations from a re-analysis of the deposited data

How the results depend on the processing

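The ratio of the minor to the major satellite does not depend on the scale. It moved by less than its counting interval in either lane alone and with 1 read added, but neither check could move it far. Adding 1 read is negligible beside such counts, and the summed reads already contain those of each lane. The ratio of each abundant satellite to input did depend on the scale. That of GSAT_MM turned from below to above 1 when the median repeat was set to 1 (1.24), when 77 old repeats (MIR, L2, MER5, Charlie, Tigger and URR1 names) were set to 1 (1.27), without the telomeric row (1.08) and on the authors' own scale (1.12). It was 0.950 without the 5 rows with most input reads and 0.999 without the 3 centromeric satellites. That of SYNREP_MM kept its direction, at 1.43, 1.46, 1.25, 1.30 and 1.10 relative to the median repeat, relative to old repeats, with no telomeric row, the authors' own scale and without the 5 top rows. With no input minimum, 16.0% of other repeats lay above GSAT_MM and 9.41% above SYNREP_MM. Of 35 alternative values, 22 stayed within the 95% interval of the reported value, and the others are those given here. Every value from 1 lane and every value with 1 read added is among these 22. That interval covers counting error of reads for ratios, and is a binomial one over rows for ranks and for the shares of repeats past a fold. CENSAT_MC rests on 3 reads, and why it has so few was not tested. No paired analysis was possible because each group has 1 sample, so no sample could be left out either.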
